A study of Mus musculus with 6 samples.

Results

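Genes known as markers of the subplate and of layer 6b, its remnant in the mature cortex, were followed in newborn mouse cortex with and without the transcriptional co-repressor Tle4. The 9 members, Ctgf, Cplx3, Nr4a2, Tmem163, Moxd1, Lpar1, Inpp4b, Pappa2 and Abca8a, are subplate and layer 6b markers taken by name, with earlier results of these data known, and each matched 1 row among the 23621 genes of the deposited table. Cortex RNA came from 3 wild-type and 3 Tle4-/- null littermates at postnatal day 0, on a mixed background of C57BL/6J, 129S6 and CD1, with no treatment named for either group. Whether the libraries of a genotype came from separate litters is not in the labels, so p-values measure only the spread between these samples. The null allele was not limited to cortex by the labels, and each library is whole dissected cortex, in which subplate neurons are a minor population. In such bulk samples fewer subplate cells and less RNA per subplate cell cannot be told apart.

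Subplate neurons are among the earliest-born neurons of the cortex and lie beneath layer 6, at the border with the white matter. They are known for guiding and gating the thalamic axons that wait there before entering the cortical plate, and for taking part in the first cortical circuits. Their molecular markers do not form a single pathway: they include a secreted matrix protein, a synaptic protein, a nuclear receptor, a lipid receptor, enzymes and transporters, and most are also used by other cells. Many subplate neurons share transcription factors with the corticothalamic neurons of layer 6, in which Tle4 is expressed. Tle4 is a Groucho-family protein, which binds no DNA itself and is brought to genes by DNA-binding partners.

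Tle4 stood at 198, 142 and 166 CPM (normalized counts scaled to library depth) in wild-type replicates 1 to 3 and at 69.3, 86.8 and 86.8 CPM in mutant replicates 1 to 3. No mutant reached the lowest wild type, and the mutants stood at 0.480 of the wild-type mean, and 1 value per gene does not show which part of the gene the remaining reads cover. Library depth ran from 18617408 to 21632607 counts. The sex-linked transcript Xist had 66194 to 79080 counts in each mutant against 11 to 37 in each wild type, and the Y-linked Ddx3y had 1463 and 1891 in wild-type replicates 1 and 2 and 0 to 2 in every other library. Wild-type replicate 3 thus had neither signal and its sex cannot be read from these genes. Sex and genotype cannot be told apart here, and all 9 members are autosomal. Markers of dorsal cortex were present in every library: Emx1 averaged 35.8 ± 6.45 CPM in wild-type and 32.8 ± 5.24 CPM in mutant libraries, and Neurod6 501 ± 27.4 and 527 ± 66.6 CPM (SD, n = 3 each). Wild-type replicate 1 was nearly free of meningeal transcripts: the summed level of 8 markers was 13.2 CPM there, 507 and 185 CPM in the other wild types and 194 to 411 CPM in the mutants. Mutant replicate 3 alone carried the choroid plexus transcript Ttr, at 1789 counts against 1 to 5 elsewhere.

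The subplate set did not move as 1 block. Ctgf fell to 0.312 of the wild-type level and was the only member past the threshold, an edgeR adjusted p under 0.05 over all 16274 genes tested. Cplx3, Pappa2 and Abca8a separated the genotypes without an adjusted p under the threshold, Cplx3 with lower and the other 2 with higher mutant values. Nr4a2, Tmem163, Moxd1, Lpar1 and Inpp4b overlapped between the genotypes. Thus 1 of 9 members was called lower, against 0.0614% of all genes tested, and 0 of 9 higher, against 0.0492%. With so small a share of all genes called, 0 calls in a short list below says little about that list. At an unadjusted edgeR p under 0.05 there were 2 lower and 2 higher members, where 1.73% of all genes were lower and 1.71% higher at that level. Libraries of the genotypes did not overlap for 2 lower and 2 higher members, and for 3.75% and 4.18% of all genes in these directions. The median log2 fold change of the members was -0.11, and that of all genes tested was -0.01.

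**Figure D1:**
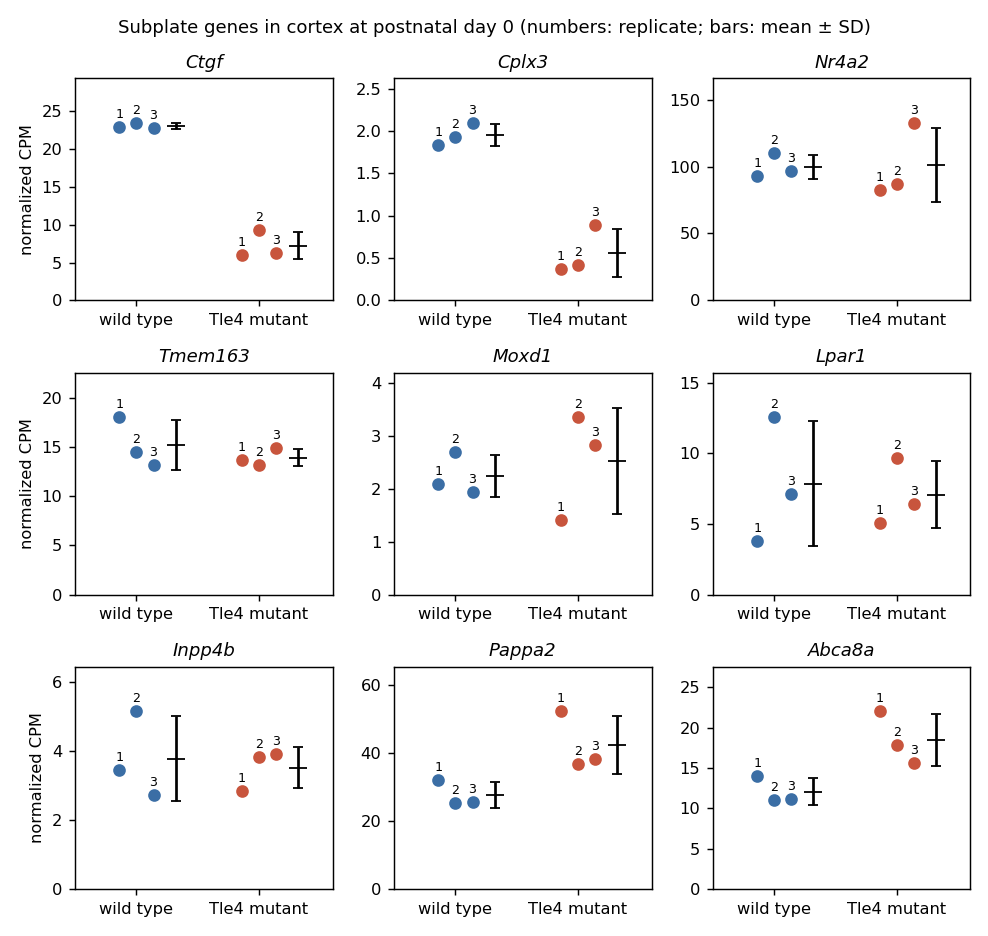
Normalized CPM (vertical axes, from 0) of the 9 subplate genes in each library, with wild type in blue, Tle4 mutant in red, replicate numbers above the points and the mean ± SD beside them (n = 3 each). Ctgf and Cplx3 lie lower and Pappa2 and Abca8a higher in all 3 mutants, while the other 5 genes overlap.

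Ctgf, also named Ccn2, encodes a secreted matrix-associated protein of the CCN family and is among the most restricted markers of the subplate in rodent cortex. The gene (ENSMUSG00000019997) lies on chromosome 10 from 24595442 to 24598683 (GRCm38, forward strand). It had 451, 523 and 424 counts in wild-type replicates 1 to 3 and 129, 177 and 121 in mutant replicates 1 to 3. Normalized levels were 23.0, 23.5 and 22.8 CPM for wild types 1 to 3 and 6.03, 9.26 and 6.31 CPM for mutants 1 to 3. The wild-type libraries thus lay within 1.03-fold of each other and the mutants within 1.53-fold, with a wide gap between the genotypes. The log2 fold change of the mutant over the wild type was -1.68 (SE 0.20, edgeR adjusted p = 0.0145), and the DESeq2 adjusted p was 9.48e-13. By DESeq2 Ctgf was again the only member called, among 0.227% of all genes called lower and 0.129% called higher. With 1 library left out at a time the log2 fold change stayed between -1.90 and -1.56, but the edgeR adjusted p missed the threshold in 4 of the 6 fits. Leaving out wild-type replicate 2 or 3 gave 0.0506 or 0.0748, and leaving out mutant replicate 1 or 3 gave 0.0567 or 0.110.

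Cells of vessels and meninges can also make Ctgf, and their markers were read in the same libraries. Ctgf was at 23.0 CPM in wild-type replicate 1, where meningeal markers were nearly absent, and at 23.5 CPM in wild-type replicate 2, where they were highest. The endothelial and pericyte markers were 7 genes that include Flt1, Cldn5 and Pecam1. They summed to 209 to 363 CPM in the wild types and 260 to 300 CPM in the mutants. Of the 7, edgeR called 0, where it called 0.0614% of all genes lower and 0.0492% higher. Among the mutants Ctgf was highest in replicate 2, which also had the most meningeal transcripts of the 3, and the part of vessels and meninges in the Ctgf level was not tested. When a meninges score entered the fit as a covariate, the log2 fold change of Ctgf was -1.71 (edgeR adjusted p = 0.0225). The antisense transcript Gm15270 overlaps Ctgf by 665 exon bases on the opposite strand and had 8 to 14 counts per library, and Ctgf gave -1.61 (edgeR adjusted p = 0.0152) with those counts added.

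Other genes of the CCN family and its regulators were measured beside Ctgf. Of 13 listed, 12 were in the table and 11 were tested, and 0 were called in either direction: 5 lay below 0 and 6 above it, around a median of 0.04 (log2 fold change). Cyr61, the sister gene Ccn1, averaged 5.80 ± 0.365 CPM in wild-type and 7.13 ± 1.46 CPM in mutant libraries (SD, n = 3 each). Amotl2, a target and partner of the Hippo pathway that controls Ctgf in many cells, had a log2 fold change of 0.22 (SE 0.15). Tead3, a DNA-binding partner in that pathway, gave -0.19 (SE 0.16). All mutants lay below all wild types for Tead3, as for 3.75% of all genes tested. The adjusted p of each of these 3 genes was 0.9996 by edgeR.

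Cplx3 encodes a complexin, a small protein that clamps and promotes vesicle fusion through the SNARE complex, and it marks layer 6b and subplate neurons. It lies on chromosome 9 from 57600019 to 57606281 (ENSMUSG00000039714, reverse strand). Counts were low: 36, 43 and 39 in wild-type replicates 1 to 3 and 8, 8 and 17 in mutant replicates 1 to 3. As levels these were 1.83, 1.93 and 2.10 CPM for wild types 1 to 3 and 0.374, 0.419 and 0.886 CPM for mutants 1 to 3. All mutants were below all wild types, mutant replicate 3 being the highest of the mutants. The log2 fold change was -1.80 (SE 0.39, a mutant level of 0.287 of the wild type), and neither the edgeR adjusted p of 0.378 nor the DESeq2 adjusted p of 0.146 passed. Exact Poisson 95% intervals, which cover counting error only, were 25.2 to 49.8 for the lowest wild-type count of 36 and 9.90 to 27.2 for the highest mutant count of 17, so the intervals of these neighbouring libraries overlapped. The gene passed the filter on low counts only through the wild type, where 3 libraries were above its minimum against 1 of the mutants. The authors' deposited table gives Cplx3 an adjusted p of 0.0261 and Ctgf one of 1.63e-07, the only 2 members under 0.05 there, where 0.288% of its genes are.

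The other complexins and their SNARE partners act in the same step of vesicle release. Of 9 listed genes 8 were tested and edgeR called 0, with log2 fold changes from -0.06 to 0.12. Cplx1, a complexin of many neurons, averaged 146 ± 16.8 CPM in wild-type and 154 ± 15.5 CPM in mutant libraries (SD, n = 3 each). Stx1a, the plasma membrane syntaxin of the release complex, gave 0.12 (SE 0.09) and Stx3, a syntaxin of sensory ribbon synapses and other membranes, 0.08 (SE 0.12). Neither passed the threshold (edgeR adjusted p = 0.9996 for each).

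The promoter sequences of members are given because Groucho proteins act through DNA-binding partners and because Cplx3 and Abca8a, whose genotypes separated in opposite directions, were the only separated members with a match to the letters searched. RefSeq (GRCm38.p6) supplied promoters for 8 of the 9 members, in 10 windows, and Ctgf was not among them. RefSeq starts can lie inside the gene spans given here. That of Abca8a is at 110095937, and its span ends at 110095978, so part of its stretch lies within that span. The 250 bases before each start were searched on both strands for the TCF/LEF letters ATCAAAG, the TEAD letters GGAATG, the T-box letters TCACACCT, the RUNX letters TGTGGT and the E-box CACGTG. These letters occur in 3.21%, 12.6%, 1.12%, 14.0% and 6.02% of all 32851 promoter windows of that length. The stretches below are the 160 bases before the start, 5′ to 3′ on the strand of the gene, with matches in capitals. That of Cplx3 is chr9:57606282-57606441 (reverse strand), with the RUNX letters read on the other strand, as ACCACA, and then 2 copies of the E-box. That of Abca8a is chr11:110095938-110096097 (reverse strand), with the E-box, the RUNX letters on the other strand and the TEAD letters in that order.
Cplx3: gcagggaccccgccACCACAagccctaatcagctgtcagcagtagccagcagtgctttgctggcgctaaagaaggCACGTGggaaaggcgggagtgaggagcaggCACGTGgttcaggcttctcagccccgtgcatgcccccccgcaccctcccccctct
Abca8a: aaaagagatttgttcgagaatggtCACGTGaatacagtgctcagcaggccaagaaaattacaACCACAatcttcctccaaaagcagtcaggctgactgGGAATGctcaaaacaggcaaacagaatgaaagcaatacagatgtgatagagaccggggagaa
The matches of Cplx3 begin 146, 85 and 55 bases before its start, and those of Abca8a 136, 98 and 62 bases before its own. In Lpar1, 1 of 3 windows held TGTGGT, 189 bases before a start at 58499403, which lies inside the gene span. The windows of Nr4a2, Tmem163, Moxd1, Inpp4b and Pappa2 held no match to these letters. A match is a description of the sequence and not evidence of binding.

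Nr4a2, also called Nurr1, is an orphan nuclear receptor that acts as a transcription factor and marks subplate, layer 6b and claustrum neurons. It had the highest length-scaled level of the 9 and lies on chromosome 2 from 57106830 to 57124003 (ENSMUSG00000026826). Levels were 92.8, 110 and 96.5 CPM in wild-type replicates 1 to 3 and 82.5, 87.3 and 133 CPM in mutant replicates 1 to 3. Mutant replicate 3 was the highest of the 6 libraries and the other mutants the lowest, so the genotypes overlapped. Mutant over wild type gave a log2 fold change of 0.01 (SE 0.18, edgeR adjusted p = 0.9996), and it was -0.23 without mutant replicate 3.

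Sister genes of Nr4a2 and its heterodimer partners gave 0 calls among 5 tested. Nr4a1, an activity-induced member of the same family, averaged 17.7 ± 0.872 CPM in wild-type and 15.1 ± 1.14 CPM in mutant libraries (SD, n = 3 each). All its mutants lay below all its wild types, as for 3.75% of all genes tested. Nr4a3 gave a log2 fold change of 0.64 with a wide error (SE 0.46). Rxrg, a retinoid X receptor that can pair with Nr4a2 and is prominent in the striatum, gave -1.05 (SE 0.42, edgeR adjusted p = 0.9996). In the same libraries 5 of 8 striatal markers, among them Ebf1, Drd2 and Ikzf1, were lower at an unadjusted edgeR p under 0.05. The share of all genes lower at that level was 1.73%. All 8 had log2 fold changes below 0, and 3 were lower without overlap of the genotypes, against 3.75% of all genes. The striatal list, too, was chosen with earlier results of these data known, so its counts are a description. The 8 markers summed to 227 to 327 CPM in the wild types and 232 to 254 CPM in the mutants. The part of striatal tissue in the Rxrg value was not tested. Claustrum and insula markers, which could accompany Nr4a2, gave 0 calls of 6, with Gnb4 at 0.15, Gng2 at -0.30 and Oprk1 at 0.51 on the log2 fold change scale. Immediate early genes, measured because Nr4a genes respond to activity, gave 0 calls of 6, with Arc at -0.44, Fosb at -0.40 and Fos at 0.26.

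Pappa2 encodes a secreted metalloprotease that cleaves insulin-like growth factor (IGF) binding proteins and so frees IGF. It lies on chromosome 1 from 158711727 to 158980490 (ENSMUSG00000073530). Levels were 31.9, 25.3 and 25.4 CPM in wild-type replicates 1 to 3 and 52.3, 36.8 and 38.2 CPM in mutant replicates 1 to 3. All mutants were above all wild types, and mutant replicate 1 was the highest of the 6. The log2 fold change was 0.62 (SE 0.17, 1.54-fold), with an unadjusted p of 0.00443 and an edgeR adjusted p of 0.829 (DESeq2 adjusted p = 0.168), and it ranged from 0.45 to 0.74 with 1 library left out.

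Other pappalysin, stanniocalcin and IGF system genes gave 0 calls among 10 tested, 3 below 0 and 7 above 0. Stc2, a stanniocalcin that inhibits pappalysins, averaged 2.15 ± 0.574 CPM in wild-type and 3.30 ± 0.691 CPM in mutant libraries (SD, n = 3 each). The ligand Igf1 was at 9.62, 10.5 and 7.36 CPM in wild-type replicates 1 to 3. It was at 10.8, 12.1 and 11.9 CPM in mutant replicates 1 to 3, without overlap. Of the 10 genes 1 was thus higher without overlap, against 4.18% of all genes tested. Igfbp2, a binding protein of IGF, gave a log2 fold change of 0.15 (SE 0.18). None of the 3 passed the threshold, with an edgeR adjusted p of 0.9996 for each.

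Abca8a encodes a transporter of the ABCA subfamily, whose members move lipids and sterols. It lies on chromosome 11 from 110025634 to 110095978 (ENSMUSG00000041828). Levels were 13.95, 11.04 and 11.18 CPM in wild-type replicates 1 to 3 and 22.03, 17.84 and 15.59 CPM in mutant replicates 1 to 3. As with Pappa2 the groups did not overlap, and replicate 1 was the highest library in each genotype. Its log2 fold change was 0.62 (SE 0.19, 1.53-fold), with an unadjusted p of 0.00829 and an edgeR adjusted p of 0.9996 (DESeq2 adjusted p = 0.369). Its chromosome 11 relatives Abca6, Abca8b and Abca9 are similar in sequence, and how reads were shared between them is not given in the sources used here. Of 8 other ABCA genes 0 were called, with Abca2 at -0.14 (SE 0.09), Abca3 at 0.13 (SE 0.12) and Abca9 at 0.27 (SE 0.41) on the log2 fold change scale. Oligodendrocyte lineage cells can also use Abca8a. Their 7 markers summed to 281 to 321 CPM in the wild types and 331 to 358 CPM in the mutants. All 7 had log2 fold changes above 0, from 0.02 to 0.31, and edgeR called 0, where it called 0.0492% of all genes higher. At an unadjusted edgeR p under 0.05, 1 was higher, Olig1 (log2 fold change 0.31, SE 0.13), against 1.71% of all genes tested. The part of oligodendrocyte lineage cells in the Abca8a value was not tested.

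Tmem163 encodes a zinc-binding membrane protein that takes part in zinc efflux. Its levels were 18.0, 14.5 and 13.1 CPM in wild-type replicates 1 to 3 and 13.7, 13.2 and 14.9 CPM in mutant replicates 1 to 3. The wild types spanned the whole range of the mutants. On the log2 scale the mutant differed by -0.13 (SE 0.17), and 0.01 without wild-type replicate 1. Tmem163 lies on chromosome 1 from 127486546 to 127679548 (ENSMUSG00000026347). Mgat5, at 653 to 1009 counts per library, overlaps it there by 152 exon bases on the opposite strand. With all Mgat5 counts added the value was -0.08. Mgat5 had more counts than Tmem163 in every library and itself gave -0.07. The summed value therefore cannot show what the overlap does to Tmem163. Zinc transporters gave 0 calls among 5 tested, with Slc30a3, the vesicular zinc transporter of cortical neurons, averaging 1.63 ± 0.436 CPM in wild-type and 1.15 ± 0.188 CPM in mutant libraries (SD, n = 3 each). Slc30a4 gave -0.13 and Slc30a1 -0.17 on the log2 fold change scale.

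Moxd1, a copper-dependent monooxygenase related to dopamine beta-hydroxylase, was at 2.09, 2.69 and 1.93 CPM in wild-type replicates 1 to 3 and 1.40, 3.35 and 2.82 CPM in mutant replicates 1 to 3. Mutant replicates 1 and 2 were the lowest and the highest of all 6 libraries. A log2 fold change of 0.17 (SE 0.36) resulted. The gene lies on chromosome 10 from 24223517 to 24302790 (ENSMUSG00000020000). Of the other copper monooxygenases only Pam, which amidates neuropeptides, was tested, and it gave -0.11 (SE 0.11).

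Inpp4b encodes a phosphatase that removes a phosphate from phosphatidylinositol bisphosphate and so limits signalling through the kinase Akt. Its levels were 3.46, 5.16 and 2.74 CPM in wild-type replicates 1 to 3 and 2.85, 3.82 and 3.91 CPM in mutant replicates 1 to 3. The mutants fell inside the range of the wild types. A log2 fold change of -0.11 (SE 0.29) was obtained for this gene, on chromosome 8 from 81342556 to 82125036 (ENSMUSG00000037940). Related phosphatases gave 0 calls among 4 tested, with Inppl1 at 0.22 and Inpp4a at -0.14 on the same scale.

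Lpar1 encodes a G-protein-coupled receptor for lysophosphatidic acid (LPA), and reporter mice driven by it label subplate neurons. It lies on chromosome 4 from 58435255 to 58553898 (ENSMUSG00000038668). Levels were 3.82, 12.6 and 7.15 CPM in wild-type replicates 1 to 3 and 5.10, 9.68 and 6.41 CPM in mutant replicates 1 to 3. The wild types alone spread 3.29-fold and enclosed all 3 mutants. The log2 fold change was -0.16 (SE 0.43), and leaving out wild-type replicate 2 or 1 gave 0.37 or -0.49. The lowest and highest libraries of Lpar1, wild-type replicates 1 and 2, were also the lowest and highest in meningeal markers, with summed levels of 13.2 and 507 CPM. The part of meningeal tissue in the Lpar1 values was not tested, and with the meninges score as a covariate the log2 fold change was -0.43 (edgeR adjusted p = 0.9996). Other LPA genes gave 0 calls among 7 tested. Plppr4, a lipid-phosphatase-related protein of glutamatergic synapses, gave -0.14, Lpar6 -0.40 and Plpp3, which degrades LPA, -0.10. Across the 9 lists of relatives of the members, edgeR called 0 of 59 genes tested and DESeq2 likewise 0. Of all genes tested, edgeR called 0.0614% lower and 0.0492% higher, and DESeq2 0.227% and 0.129%. At an unadjusted edgeR p under 0.05, 1 of 59, Rxrg, was lower, where 1.73% of all genes were lower and 1.71% higher.

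**Figure D2:**
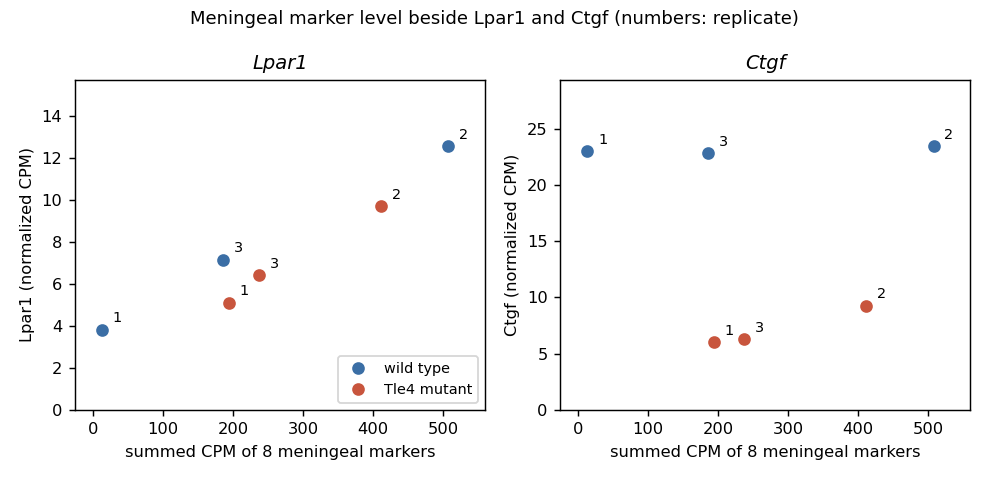
Normalized CPM of Lpar1 (left) and Ctgf (right) against the summed CPM of 8 meningeal markers in each library, wild type in blue and Tle4 mutant in red, with replicate numbers. Lpar1 is lowest at 13.2 CPM of meningeal markers and highest at 507 CPM, while Ctgf is between 22.8 and 23.5 CPM in the 3 wild types and highest among the mutants, at 9.26 CPM, in the mutant with the most meningeal transcripts.

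Levels of different genes were compared per length, by the FPKM the authors deposited, which count fragments per kilobase of gene and per sequencing depth. In the wild type Nr4a2 was highest at 15.8 ± 1.83 FPKM (SD, n = 3), followed by Ctgf at 4.87 ± 0.188. Pappa2, Tmem163, Lpar1 and Abca8a came next, at 2.46, 2.18, 1.54 and 1.43 FPKM, and neighbours among these 4 overlapped between libraries. Cplx3 and Moxd1, at 0.692 and 0.639 FPKM, overlapped as well, and Inpp4b was lowest at 0.264 FPKM. In the mutant Nr4a2 remained first at 15.7 ± 4.26 FPKM. Ctgf, at place 2 in the wild type, was at place 5 with 1.51 ± 0.379 FPKM, where its libraries overlapped those of Tmem163 above it and Lpar1 below it. Cplx3, at place 7 in the wild type, was at place 9 with 0.196 ± 0.0988 FPKM and overlapped Inpp4b at 0.242 FPKM (SD, n = 3 throughout).

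**Figure D3:**
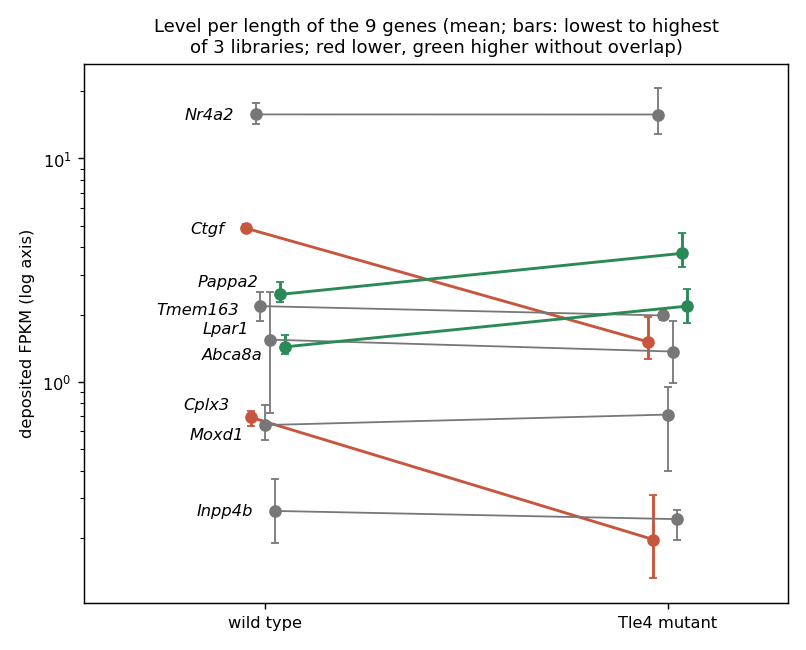
Deposited FPKM (log axis) of the 9 subplate genes in wild type and Tle4 mutant, as means with bars from the lowest to the highest of 3 libraries. Ctgf and Cplx3 (red) stand at 1.51 and 0.196 FPKM in the mutant, Pappa2 and Abca8a (green) at 3.76 and 2.18 FPKM, and Nr4a2 is highest in both genotypes.

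Ratios of counts within a library need no scaling between libraries and set members directly against each other. Ctgf counts were 24.8%, 21.3% and 23.6% of Nr4a2 counts in wild-type replicates 1 to 3 and 7.31%, 10.6% and 4.76% in mutant replicates 1 to 3. Against Pappa2 they were 71.9%, 92.7% and 89.6% for wild types 1 to 3 and 11.5%, 25.2% and 16.5% for mutants 1 to 3. Cplx3 counts came to 1.98%, 1.75% and 2.17% of those of Nr4a2 in wild-type replicates 1 to 3 and to 0.454%, 0.480% and 0.669% in mutant replicates 1 to 3. In all 3 ratios the genotypes were apart, by -1.69, -2.32 and -1.90 on the log2 scale. The exact 2-sided permutation test gave p = 0.1 for each, the smallest that 3 libraries against 3 can give, and 0.1 after adjustment over the 3 ratios. These pairs were chosen after the values were seen, with Ctgf and Cplx3 already known to be apart between the genotypes. The permutation test therefore cannot decide anything here, and the ratios are a description.

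Among 17 other genes used as markers of subplate or layer 6b, 0 were called in either direction by edgeR. Of all genes tested it called 0.0614% lower and 0.0492% higher. At an unadjusted p under 0.05 there were 5 lower and 1 higher, where 1.73% of all genes tested were lower and 1.71% higher. The list was chosen with earlier results of these data known, so its counts are a description and no independent test. Libraries of the genotypes did not overlap for 5 lower and 2 higher genes of the 17, and for 3.75% and 4.18% of all genes. Negative log2 fold changes were found for 12 of the 17, and the median over all 17 was -0.19. Nxph3, a neurexin ligand of layer 6b, was at 70.43, 43.09 and 46.33 CPM in wild-type replicates 1 to 3 and 13.28, 19.99 and 20.39 CPM in mutant replicates 1 to 3. Its genotypes were apart, with a log2 fold change of -1.58 (SE 0.23, edgeR adjusted p = 0.0789).

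Kcnab1, an auxiliary subunit of potassium channels, was at 25.7, 27.1 and 28.1 CPM for wild types 1 to 3 and 17.2, 11.8 and 15.1 CPM for mutants 1 to 3. All mutants were lower, with a log2 fold change of -0.88 (SE 0.16, edgeR adjusted p = 0.184). Ngfr, the low-affinity neurotrophin receptor, was at 27.3, 11.4 and 6.66 CPM for wild types 1 to 3 and 1.68, 2.46 and 2.35 CPM for mutants 1 to 3. Its wild types differed widely from each other and the mutants did not, and the log2 fold change was -2.80 (SE 0.53, edgeR adjusted p = 0.359). By DESeq2 these 3 genes were called lower, with adjusted p of 2.38e-08, 0.000713 and 2.53e-07, and 1 gene was called higher, where DESeq2 called 0.227% of all genes lower and 0.129% higher.

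That gene was Pls3, an actin-bundling plastin on the X chromosome, which averaged 78.2 ± 6.13 CPM in wild-type and 117 ± 18.4 CPM in mutant libraries (SD, n = 3 each). Its log2 fold change was 0.59 (SE 0.13, DESeq2 adjusted p = 0.0241), and for this X-linked gene sex and genotype cannot be told apart. Nxph4, a further neurexin ligand, gave -0.89 (SE 0.23, edgeR adjusted p = 0.731), and Galnt9, a glycosyltransferase, -0.37 (SE 0.15). Pls3, Nxph4 and Galnt9 are named because they completed the 6 genes with an unadjusted p under 0.05, and so were chosen after their values were seen. Gabra5, a GABA receptor subunit, averaged 93.1 ± 1.69 and 95.5 ± 1.33 CPM in wild type and mutant (SD, n = 3 each). The difference was small, but its genotypes did not overlap, with a highest wild type of 94.16 CPM and a lowest mutant of 94.49 CPM. Cdh10, a cadherin, was nearly level at 68.6 ± 4.68 and 69.9 ± 6.69 CPM in wild type and mutant, with overlap. Both were also named after their values were seen.

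**Figure D4:**
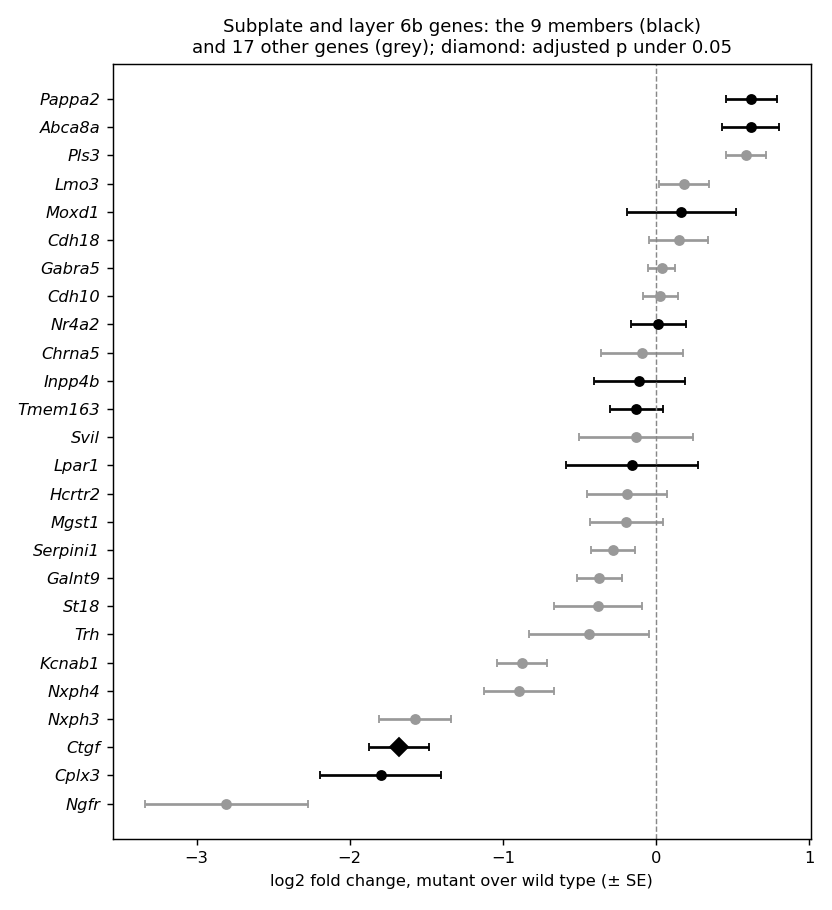
Log2 fold change of the mutant over the wild type with its SE for the 9 members (black) and the 17 other subplate and layer 6b genes (grey), ordered by value. The only gene past an edgeR adjusted p of 0.05 is Ctgf (diamond, -1.68), and the values run from -2.80 for Ngfr to 0.62 for Pappa2.

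Layer 6 corticothalamic genes, which share transcription factors with the subplate, were read from the same fit. Of 8 genes, edgeR called 0 lower and 1, Fezf2, higher, against 0.0614% and 0.0492% of all genes tested. Fezf2 is also a gene of subcerebral projection neurons, so its value is not particular to layer 6. At an unadjusted edgeR p under 0.05 there were 4 lower and 1 higher, against 1.73% and 1.71% of all genes. These 8 genes were chosen with earlier results of these data known, so their counts are a description. DESeq2 called 3 lower, Hs3st4, Zfpm2 and Foxp2, with adjusted p of 1.00e-06, 0.000128 and 0.00139, and Fezf2 higher. Of all genes tested, DESeq2 called 0.227% lower and 0.129% higher. Hs3st4, a heparan sulfate sulfotransferase, gave a log2 fold change of -0.90 (SE 0.13, edgeR adjusted p = 0.0522), and Zfpm2, a zinc-finger cofactor, -0.82 (SE 0.14, edgeR adjusted p = 0.121). Markers of Cajal-Retzius cells, the other early-born neurons of the cortex, gave 0 calls of 5, with values from -0.19 to 0.07.

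Genes whose pattern lay closest to Ctgf were ranked by the mean absolute difference of centred log2 CPM over the 6 libraries, among 10755 genes. Among the 3 nearest were Sh3gl2, an endophilin of synaptic vesicle uptake, at a distance of 0.17, and Rab40c, a small GTPase, at 0.24. Sh3gl2 averaged 152 ± 8.02 CPM in wild-type and 55.0 ± 4.02 CPM in mutant libraries (SD, n = 3 each) and was called lower by edgeR, at -1.46 on the log2 scale (SE 0.10, adjusted p = 0.000483). Like it, Rab40c was called lower as well, at -1.29 (SE 0.13, edgeR adjusted p = 0.00733). Closest to Cplx3 were Ecel1, a membrane metallopeptidase of neurons, at 0.28, Ctgf itself at 0.31 and Sh3gl2 at 0.33. Ecel1 was at 7.69, 6.69 and 10.2 CPM for wild types 1 to 3 and 2.25, 4.08 and 4.28 CPM for mutants 1 to 3, again without overlap (log2 fold change -1.21, SE 0.29, edgeR adjusted p = 0.544). Nearness here was measured over the same 6 libraries that separate by genotype, so any gene with a like fall ranks high.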

How the data were processed

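Per the submitters' processing notes, the builds were GRCm38.p4 and mm10 and the tools HISAT2 2.0.4, StringTie and edgeR; how reads were counted, on which annotation and with what strand setting is not given in the sources used here. The deposited table holds, per the file headers, whole-number counts, FPKM per library, mean FPKM per genotype, and a raw and an adjusted p-value from the comparison the authors made. Coordinates are the table's, and 23456 of 23621 gene IDs were found in GENCODE M21 (GRCm38), each on the same chromosome.

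Counts were tested with edgeR 4.0.16 in R 4.3.3: filterByExpr (10 counts or the like CPM in 3 libraries), TMM factors, a robust quasi-likelihood fit and 2-sided test on genotype, with Benjamini-Hochberg adjustment over 16274 genes and a threshold of 0.05. The method was tested on simulated data with the same dispersion for every gene. Differences in dissection between libraries were not part of that simulation. The SE was taken as the size of the log2 fold change divided by the root of F. CPM are TMM-normalized. DESeq2 1.42.0 and limma 3.58.1 (voom, and a trend fit on log2(FPKM + 0.1)) were alternatives, with other filters and scaling, a replicate block, each library left out, X and Y or mitochondrial genes left out, a meninges score as a covariate, and overlapping rows added. Log2 CPM for the score and for nearness used a prior count of 2. Plppr4 and Plpp3 were matched by gene ID, and 2 of 66 listed relatives had no row used here. Precision rests on the spread between libraries.

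The members and gene lists were chosen with earlier results of these data known. Named were all members, genes overlapping them, Tle4, up to 3 genes per list with the smallest p, and the 3 genes nearest in pattern to Ctgf and Cplx3 (mean of at least 5 CPM, no X, Y or mitochondrial genes, unnamed loci or pseudogenes). Some results the rule takes are left out and not reported here. Any other gene was named after its values were seen.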

Additional observations from a re-analysis of the deposited data

How the results depend on the processing

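Ctgf kept its direction in all 17 alternatives and Cplx3, Pappa2 and Abca8a did too, with log2 fold changes from -1.90 to -1.56, -2.28 to -1.47, 0.45 to 0.74 and 0.48 to 0.74. Ctgf passed the threshold in 12 of the 17, and the other members in 0. The number of members called was 0 with the replicate block, where Ctgf gave an edgeR adjusted p of 0.0504, and 0 to 1 with a library left out. Whether replicate numbers pair the libraries is not in the labels. Deviations of same-numbered libraries from their genotype means correlated at -0.06, 0.10 and -0.02, and those of differently numbered libraries at -0.09 to 0.10. With 3 libraries per genotype these values cannot decide whether the libraries are paired. The number of all genes called was 58 by the DESeq2 Wald test, 9 with the replicate block and 8 to 19 with a library left out, against 18, and the number of other subplate genes called was 4 by DESeq2 against 0. Members near 0 changed sign. For Nr4a2 this was so by limma-voom (-0.0198), with the replicate block (-0.0157), with the meninges score (-0.0247) and on FPKM (-0.0275). With each library left out in turn, log2 fold changes ran from -0.233 to 0.1405 for Nr4a2, -0.223 to 0.01205 for Tmem163, -0.0920 to 0.461 for Moxd1, -0.485 to 0.369 for Lpar1 and -0.292 to 0.187 for Inpp4b. The sign turned for Nr4a2 on leaving out wild-type replicate 1 or 3 or mutant replicate 3, for Tmem163 wild-type replicate 1, for Moxd1 mutant replicate 2, and for Lpar1 and Inpp4b wild-type replicate 2 or mutant replicate 1. The cause of these changes was not tested. Counts of 8 to 43 per library limit the precision of Cplx3.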
